A study of Mus musculus with 18 samples.

Results

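Heparan sulfate is a sulfated sugar chain carried by core proteins at the cell surface and in the glomerular basement membrane. The genes described here are 38 mouse genes that build, sulfate, trim or carry that chain: 4 enzymes of the linker sugar, 5 of chain polymerisation, 4 N-deacetylase/N-sulfotransferases, the epimerase and the 2-O-sulfotransferase, 3 6-O-sulfotransferases, 6 3-O-sulfotransferases, 2 6-O-endosulfatases, heparanase, 4 syndecans, 6 glypicans and perlecan. They were matched by gene symbol to the deposited array table, and each gene was read from 1 transcript cluster (a set of probes), the brightest on average over the 18 arrays. All 38 had a transcript cluster, of 22909 gene symbols in the table.

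The study profiled 3 glomerular cell types in *Cd2ap* mutant mice, a model of focal segmental glomerulosclerosis, on Affymetrix Mouse Gene 1.0 ST arrays. Glomeruli were isolated by sieving at 5 weeks of age, dissociated, and sorted by FACS on GFP. Each cell type was marked by a GFP transgene of its own, which was *Meis1-GFP* in mesangial cells and *Tie2-GFP* in endothelial cells. Mutant mice carried the *Cd2ap* tm1Shaw allele (B6.129X1-Cd2ap tm1Shaw/J) in both copies, in every cell of the body, and controls are labelled wildtype. Each cell type and genotype had 3 arrays, and mutants and controls of a cell type share its transgene. The column names of the mesangial controls show a plus followed by a minus, unlike those of the other controls, and these arrays were used as wild type, as labelled. Their sample titles say control, where those of the other cell types say wild type. If the minus stands for a mutant copy, comparisons of mesangial cells with the other types hold unlike controls. The mesangial genotype differences would then set mutants against carriers of a mutant copy, not against wild type. Differences between genotype effects that include mesangial cells would share this limit, which was not tested. Whether an array held RNA of 1 animal or of a pool is not given in the sources used here, so p values measure the spread between these arrays. Arrays of a group are called A, B and C, with no order among them. A signal is an RMA intensity on a linear scale, it is compared only within a gene, and 100 is the minimum that the methods used.

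In the synthesis of heparan sulfate, a linker sugar is placed on the core protein, exostosins extend the chain, and N-deacetylase/N-sulfotransferases, an epimerase and the 2-O-, 6-O- and 3-O-sulfotransferases modify it in turn. The endosulfatases Sulf1 and Sulf2 then remove 6-O-sulfate from finished chains outside the cell, and heparanase cuts the chain. In the glomerulus these chains bind growth factors such as those of the FGF, VEGF and BMP families and add negative charge to the filtration barrier.

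*Cd2ap*, the targeted gene, had signals of 819, 870.4 and 797 in mutant mesangial arrays and 922, 1037 and 1123 in the controls, 1512, 1503 and 1478 against 2108, 1670.4 and 1546 in podocytes, and 891, 966 and 920.4 against 839.8, 859 and 757 in endothelial cells. It was not called lower in any cell type (log2 difference -0.31, adjusted p = 0.151 from limma in mesangial cells, -0.23, adjusted p = 0.504 in podocytes, and 0.18, adjusted p = 0.336 in endothelial cells). Which part of the transcript the probes read is not given in the sources used here, so genotypes rest on the labels. Arrays of a group correlated at 0.980 to 0.992, except those of mutant podocytes, which correlated at 0.967 to 0.971, and arrays of different groups at 0.892 to 0.988. Each sorted type was highest in its own marker list: the summed signal of 10 podocyte markers was 14640.2 to 18179 in podocyte arrays and at most 4595 elsewhere, that of 10 endothelial markers 15494 to 18086 in endothelial arrays and at most 8041 elsewhere, and that of 8 mesangial markers 8217 to 12127 in mesangial arrays and at most 5308 elsewhere.

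Some arrays carried markers of another cell type. Wild type mesangial array C had a podocyte marker sum of 4595 against 1090.5 and 1250 in arrays A and B, an endothelial sum of 8041 against 2743 and 3121, and a tubule sum of 1886 against 514 and 506. Wild type podocyte arrays had endothelial sums of 5084, 6010.0 and 4552 against 2784, 1361 and 924 in mutant podocyte arrays, and mesangial sums of 5308, 4579 and 4146 against 3858, 3282 and 1317. In that comparison 8 of 10 endothelial and 4 of 8 mesangial markers were called lower in mutants, 2 of 4 tested juxtaglomerular and smooth muscle markers and 2 of 3 tested parietal epithelial markers and 1 of 4 tested leukocyte markers were called higher, and 1 of 10 podocyte markers was called lower. The part of these markers in the results below was not tested.

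By level, 5 of the 38 genes had a signal of at least 100 on all 18 arrays and 10 on none. The 5 were *Ext1* and *Ext2*, the pair of exostosins that polymerises the chain, *Ndst1*, *Hs3st3b1* and *Hspg2*. The 10 under 100 throughout lay between 23.1 and 78.8 and were *B4galt7*, *Ndst3*, *Ndst4*, *Hs6st2*, *Hs6st3*, *Hs3st1*, *Hs3st5*, *Hpse* (heparanase), *Gpc2* and *Gpc5*. They entered no genotype comparison. In bulk samples of sorted cells, fewer cells of a type and less RNA per cell cannot be told apart.

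**Figure D1:**
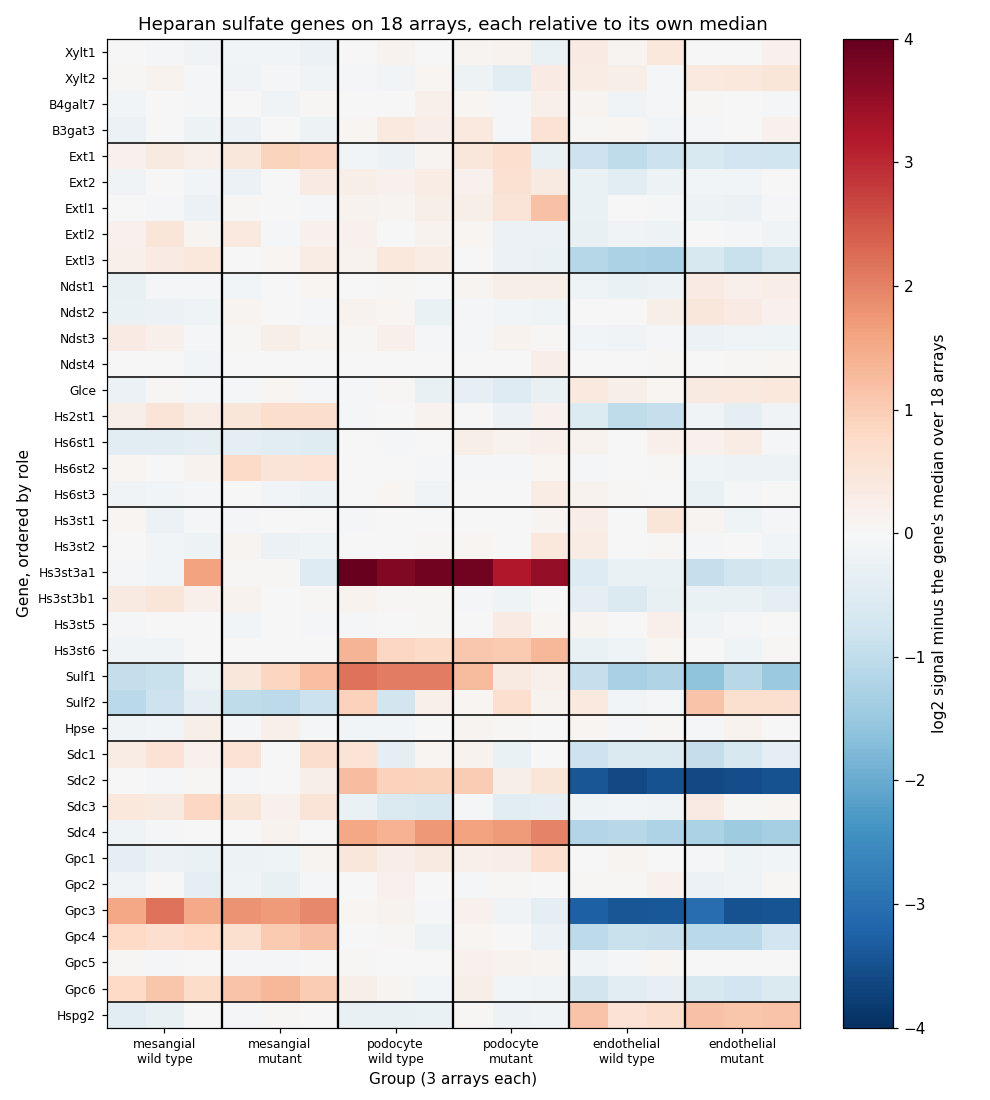
Heat map of the 38 genes (rows, ordered by role, black lines between roles) on 18 arrays (columns, 3 for each group); colour is the log2 signal minus that gene's median over the 18 arrays. *Hs3st3a1* and *Sdc4* are highest in podocyte columns of both genotypes, *Sulf1* in wild type podocyte columns, *Gpc3*, *Gpc4* and *Gpc6* in mesangial columns and *Hspg2* in endothelial columns.

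The first question was how the cell types differ in these genes. Calls here took an adjusted p under 0.05 and a fold change over 1.5, and 25 of the 38 genes in wild type arrays and 28 in mutant arrays reached a signal of 100 in at least 1 of the 9 arrays compared. A gene that passed only through the cell type in which it was high had to differ, so the counts are a description. Wild type podocytes against mesangial cells gave 6 genes higher (all transcript clusters, 5.90%) and 4 lower (9.24%), and mutant podocytes against mesangial cells gave 6 higher (6.35%) and 5 lower (12.1%). Against endothelial cells, podocytes had 11 genes higher (9.83%) and 1 lower (11.6%) in wild type arrays, and 11 higher (9.52%) and 2 lower (20.5%) in mutant arrays. Mesangial cells against endothelial cells had 11 higher (9.58%) and 1 lower (7.91%) in wild type arrays, and 11 higher (7.11%) and 2 lower (10.2%) in mutant arrays. Calls with the same direction in wild type and mutant arrays numbered 7 for podocytes against mesangial cells and 10 for podocytes against endothelial cells. They numbered 10 for mesangial against endothelial cells. The share of all transcript clusters called in both genotypes was not computed, so these counts are a description as well. Both podocyte counts include *Hs3st3a1* and *Hs3st6*, which are given without a test below. The median log2 difference of the tested genes was 0.12 in wild type podocytes against mesangial cells, 0.54 in podocytes against endothelial cells and 0.47 in mesangial against endothelial cells, and that of all transcript clusters tested was -0.03, -0.02 and -0.01. In mutant arrays the medians of the tested genes were, in the same order, -0.05, 0.36 and 0.19. Those of all transcript clusters tested were -0.04, -0.11 and -0.05.

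Among the core proteins, the syndecans, which span the membrane, divided by cell type. *Sdc2* had wild type signals of 755, 615 and 599 in podocytes, 317, 303 and 335 in mesangial cells and 30.0, 26.6 and 28.9 in endothelial cells. The cell types did not overlap, and all 6 endothelial arrays were under 100. In wild type arrays podocytes exceeded endothelial cells by 4.52 on the log2 scale (standard error 0.11, adjusted p = 1.55e-08 from limma) and mesangial cells by 1.04 (adjusted p = 9.72e-05). In mutant arrays podocytes had 655, 378 and 452, mesangial cells 315, 328 and 381, and the ranges overlapped. *Sdc4* had signals of 469, 418 and 529 in wild type podocytes, 142, 152 and 162 in mesangial cells and 70.6, 75.2 and 68.5 in endothelial cells. In mutant arrays it had 494, 524 and 636 in podocytes, 159, 175 and 162 in mesangial cells and 66.8, 59.9 and 63.3 in endothelial cells. Podocyte arrays thus lay above the others in both genotypes, by 1.63 over mesangial cells in wild type arrays (standard error 0.11, adjusted p = 1.14e-05, limma) and by 1.73 in mutant arrays (standard error 0.12, adjusted p = 8.8e-06).

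*Sdc3* and *Sdc1* had other orders. *Sdc3* was highest in mesangial cells, with 203, 193 and 269.8 in wild type arrays, against 136, 139.5 and 139 in endothelial cells and 125, 102 and 98.2 in podocytes, and the 3 wild type groups did not overlap. Mesangial cells exceeded podocytes, at a difference of -1.03 for podocytes minus mesangial cells (adjusted p = 0.000516 from limma), and -0.67 in mutant arrays (adjusted p = 0.00849). *Sdc1* had 115, 140.3 and 106 in wild type mesangial arrays, 138, 73.9 and 99.4 in podocyte arrays and 53.2, 62.8 and 63.4 in endothelial arrays, so that mesangial cells and podocytes overlapped while both lay above endothelial cells. In mutant arrays *Sdc1* had 142, 95.1 and 152, then 104, 78.7 and 93.0, then 48.3, 60.5 and 73.5, in the same order of cell types.

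The glypicans are held to the membrane by a lipid anchor, and 3 of the 6 were highest in mesangial cells. *Gpc3* had wild type signals of 1396, 2113 and 1345 in mesangial cells, 501, 525 and 447 in podocytes and 49.0, 43.9 and 45.5 in endothelial cells. In mutant arrays it had 1645, 1549 and 1777, then 528, 431 and 364, then 57.8, 42.7 and 43.3. The 3 cell types were apart in both genotypes, and mesangial cells exceeded endothelial cells by 5.10 on the log2 scale (standard error 0.16, adjusted p = 3.61e-08 from limma) in wild type arrays and by 5.12 (adjusted p = 1.11e-07) in mutant arrays. Podocytes exceeded endothelial cells by 3.41 and 3.20, with adjusted p = 6.33e-07 and 6.11e-07 from limma. Podocyte arrays also carried mesangial markers, with sums of 5308, 4579 and 4146 in wild type and 3858, 3282 and 1317 in mutants. Wild type mesangial arrays had sums of 11072 to 12127. The part of these markers in the podocyte signals of *Gpc3* was not tested. RefSeq (GRCm38.p6) places *Gpc3* and *Gpc4* next to each other on chromosome X with 0 genes between them. *Gpc4* followed the same order of cell types, with 118, 109 and 119 in wild type mesangial cells, 69.4, 71.2 and 59.2 in podocytes and 33.3, 36.7 and 36.0 in endothelial cells, and 107, 143 and 156, then 71.9, 68.1 and 58.3, then 32.6, 32.8 and 40.1 in mutant arrays.

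*Gpc6* also had its highest signals in mesangial cells, with 176, 217 and 169 in wild type arrays and 223, 254 and 205 in mutant arrays, against 118, 108 and 94.5 and 119, 92.8 and 90.7 in podocytes and 60.7, 74.5 and 80.1 and 65.2, 59.5 and 67.7 in endothelial cells. Mesangial cells exceeded podocytes in both genotypes (difference for podocytes minus mesangial cells -0.81, adjusted p = 0.00232, and -1.18, adjusted p = 0.000239, limma). Its neighbour *Gpc5*, with 0 protein-coding genes between them on chromosome 14, stayed between 30.8 and 37.9 on all arrays. *Gpc1* was higher in wild type podocytes (113, 99.2 and 106) than in mesangial cells (65.2, 70.9 and 69.4), a difference of 0.63 given without a test because podocytes alone reached 100, and its mutant signals of 96.2, 99.2 and 134 and of 71.7, 73.8 and 89.3 did not reach a fold change of 1.5. *Gpc2* stayed between 52.4 and 76.0.

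*Hspg2* encodes perlecan, a secreted core protein of basement membranes. Its signals were 337, 230.0 and 248 in wild type endothelial cells, 113, 124 and 150.5 in mesangial cells and 125, 123 and 127 in podocytes. In mutant arrays they were 344, 327 and 338, then 149, 156 and 155, then 158, 134 and 137. Endothelial cells were above both other types in both genotypes (podocytes minus endothelial cells -1.10, standard error 0.15, adjusted p = 0.000416 from limma, and -1.24, standard error 0.10, adjusted p = 1.39e-05) while mesangial cells and podocytes overlapped in both genotypes.

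**Figure D2:**
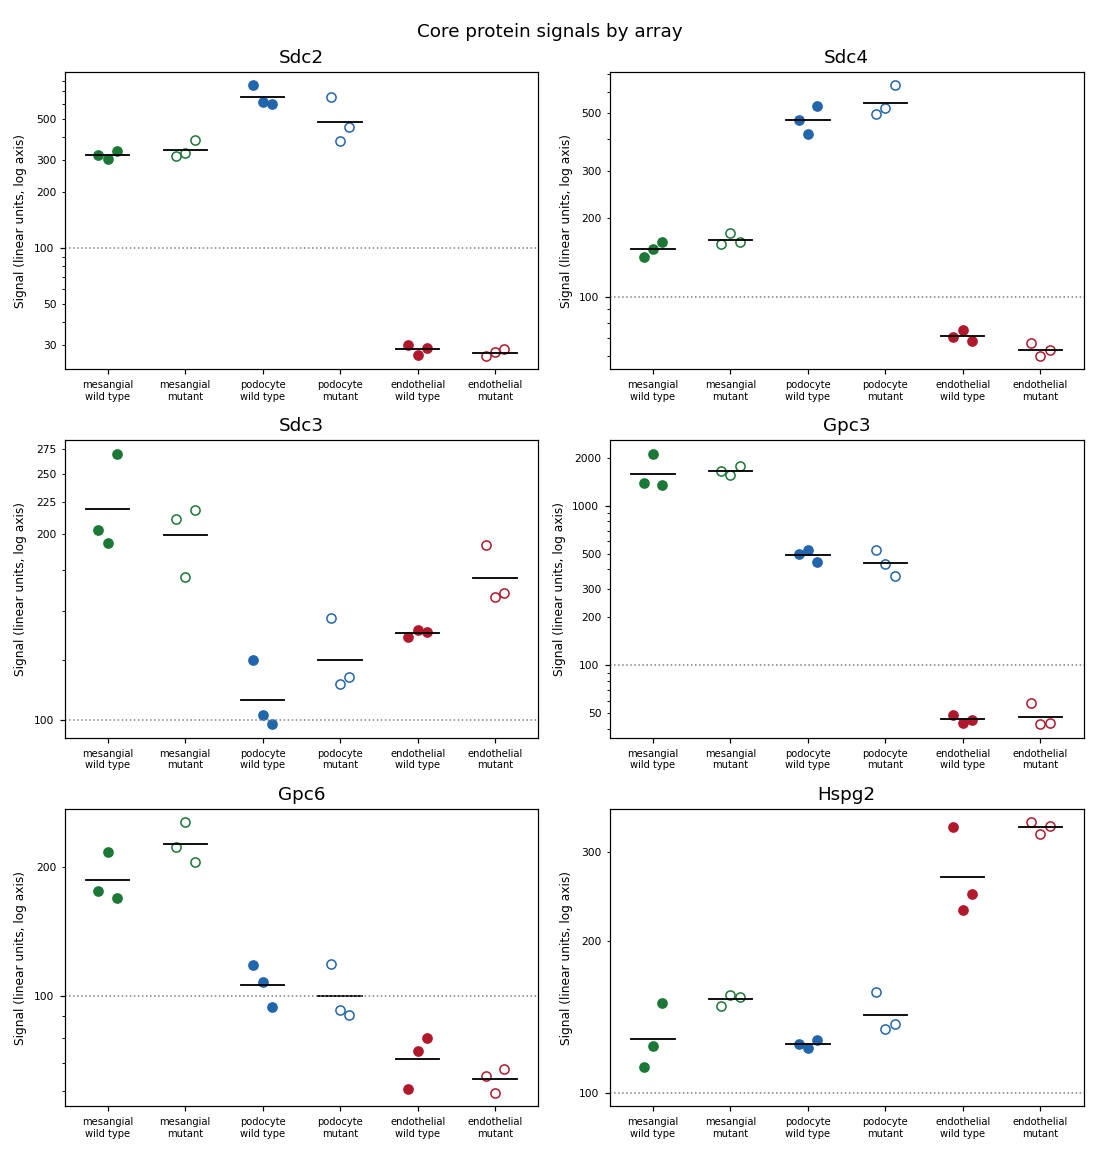
Signal of 6 core proteins (linear units on a log axis) in each array, for wild type (filled) and mutant (open) arrays of 3 cell types; bars are geometric means of 3 arrays and the dotted line is the minimum of 100. *Sdc4* is highest in podocytes of both genotypes, *Sdc2* is higher in podocytes than in mesangial cells among wild type arrays and overlaps between them among mutant arrays, *Gpc3* and *Gpc6* in mesangial cells and *Hspg2* in endothelial cells.

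Of the 3-O-sulfotransferases, which place a rare sulfate on the chain, *Hs3st3a1* and *Hs3st6* were high in podocytes and *Hs3st3b1* in all cells. *Hs3st3a1* had 1048, 748 and 839 in wild type podocytes and 839, 524 and 660.3 in mutant podocytes. Endothelial arrays had 40.4, 47.9 and 47.3 in wild type and 30.2, 34.2 and 36.5 in mutants, and mutant mesangial arrays had 59.7, 58.8 and 40.3. Wild type mesangial arrays had 56.1, 53.7 and, in array C with its podocyte markers, 175. Every podocyte array was at least at 524 and no other array above 175. Podocytes exceeded mesangial cells by 3.43 (standard error 0.38) in wild type arrays, 3.99 without array C, and by 3.67 (standard error 0.20) in mutant arrays. These are given without a test because podocytes alone, and array C in wild type, reached 100. A second transcript cluster that carries *Hs3st3a1* together with F930015N05Rik had group means of 42.9 to 58.5, and the mean of both clusters lowered the wild type difference to 1.89, so the size depends on the cluster.

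*Hs3st3b1*, which encodes an enzyme of the same specificity, lies near *Hs3st3a1* on chromosome 11 with 1 protein-coding gene, *Cox10*, between them in RefSeq. Its signals were 296, 319.9 and 266 in wild type mesangial cells, 254, 234.7 and 237 in podocytes and 179.7, 155 and 186 in endothelial cells, and 249.9, 226 and 235.4, then 214, 205 and 231, then 191, 192 and 176 in mutant arrays. Mesangial cells exceeded endothelial cells by 0.76 in wild type arrays (adjusted p = 0.000471 from limma), and no difference of podocytes from another type was called. *Hs3st6* had 184, 128 and 123 in wild type podocytes and 153, 151 and 182 in mutant podocytes, and 60.3 to 77.2 on the 12 other arrays. Podocytes were above mesangial cells by 1.08 in wild type arrays and by 1.17 in mutant arrays, given without a test because *Hs3st6* reached 100 through podocytes alone. *Hs3st2* lay between 68.5 and 106.

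Promoters of these genes were read from RefSeq (GRCm38.p6), from 250 bases before to 50 bases after the transcript start, where 28 of the 38 genes had an entry. The 4 below are shown because their genes had different patterns over the cell types: *Hs3st3a1* and *Sdc4* were highest in podocytes, *Gpc3* in mesangial cells, and *Hs3st3b1* was at 155 or more in every array. Capitals mark matches, on either strand, to a set of motifs chosen with the sequences in view. The GC box was searched as the letters GGGCGG. The CCAAT box was searched by the letters of its name. The TATA box was searched as the letters TATAAA. The cAMP response element was searched as the letters TGACGTCA. They lie at chr11:64435082-64435381 on the plus strand (*Hs3st3a1*), and on the minus strand at chr11:63922235-63922534 (*Hs3st3b1*), chr2:164443139-164443438 (*Sdc4*) and chrX:52613925-52614224 (*Gpc3*).
Hs3st3a1: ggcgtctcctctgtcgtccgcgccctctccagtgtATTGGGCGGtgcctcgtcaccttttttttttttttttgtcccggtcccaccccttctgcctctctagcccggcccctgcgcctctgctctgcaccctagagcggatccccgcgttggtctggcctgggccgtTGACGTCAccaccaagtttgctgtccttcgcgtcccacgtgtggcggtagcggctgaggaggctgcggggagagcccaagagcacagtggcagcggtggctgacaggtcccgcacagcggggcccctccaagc
Hs3st3b1: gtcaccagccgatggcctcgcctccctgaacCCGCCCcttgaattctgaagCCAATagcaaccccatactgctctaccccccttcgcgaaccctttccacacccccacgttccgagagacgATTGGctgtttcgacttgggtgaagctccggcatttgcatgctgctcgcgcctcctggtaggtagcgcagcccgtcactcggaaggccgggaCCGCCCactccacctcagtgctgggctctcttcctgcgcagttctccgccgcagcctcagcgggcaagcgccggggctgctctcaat
Sdc4: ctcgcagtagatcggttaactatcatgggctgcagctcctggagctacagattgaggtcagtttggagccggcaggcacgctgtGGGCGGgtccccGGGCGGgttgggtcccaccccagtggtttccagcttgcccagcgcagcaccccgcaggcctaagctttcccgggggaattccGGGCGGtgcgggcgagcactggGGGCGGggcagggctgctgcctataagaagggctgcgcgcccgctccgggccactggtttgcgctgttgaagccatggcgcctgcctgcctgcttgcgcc
Gpc3: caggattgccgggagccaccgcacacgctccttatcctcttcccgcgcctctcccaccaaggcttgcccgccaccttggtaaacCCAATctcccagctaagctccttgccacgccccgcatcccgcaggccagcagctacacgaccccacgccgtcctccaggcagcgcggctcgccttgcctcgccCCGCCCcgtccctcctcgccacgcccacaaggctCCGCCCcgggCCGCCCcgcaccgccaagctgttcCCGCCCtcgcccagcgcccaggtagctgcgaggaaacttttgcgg

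The *Hs3st3a1* promoter held 1 GC box that overlaps 1 CCAAT box, and 1 cAMP response element. The *Hs3st3b1* promoter held 2 GC boxes and 2 CCAAT boxes, the *Sdc4* promoter 4 GC boxes, and the *Gpc3* promoter 4 GC boxes and 1 CCAAT box. Of all 32851 promoters of this length, 35.7% hold the GC box, 37.4% the CCAAT box, 13.6% the TATA box and 1.79% the cAMP response element. Of 32 promoters of the heparan sulfate genes scanned, 21 held the GC box, 14 the CCAAT box, 3 the TATA box and 2 the cAMP response element. Promoters on 1 chromosome were left out of these 32, a limit not set for the 32851 or for the count of genes with an entry. G and C made up 65.3% of the bases in the *Hs3st3a1* promoter, 63.7% in that of *Hs3st3b1*, 67.7% in that of *Sdc4* and 70.7% in that of *Gpc3*, and the median was 66.3% over the 32 and 52.7% over all promoters. A match is a description of the letters only.

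The other enzymes of the chain had several orders of cell types. *Ext1* was higher in mesangial cells (324, 364 and 328 in wild type arrays) than in endothelial cells (159, 139.8 and 156), by 1.16 (adjusted p = 3.79e-05 from limma), and podocytes lay between with 267, 242 and 305. *Ext2* had group means of 244 to 395. *Hs2st1*, the 2-O-sulfotransferase, was higher in wild type mesangial cells (231, 283 and 240.1) and podocytes (187, 194 and 219) than in endothelial cells (136, 98.2 and 104), by 1.16 (adjusted p = 0.000187) and 0.84 (adjusted p = 0.00113, limma). *Extl3*, a transferase that starts the chain, had 191, 209.6 and 222 in wild type mesangial cells, 184, 221 and 204 in podocytes and 75.9, 69.3 and 67.9 in endothelial cells. In wild type arrays endothelial cells were below the rest for both genes, while in mutant arrays *Hs2st1* overlapped between endothelial cells (179, 153 and 180.0) and podocytes (199, 166 and 220.4). *Glce*, the epimerase, had 156, 140.1 and 126 in wild type endothelial cells, and was lower in mutant podocytes (95.7, 83.4 and 96.8) than in mutant endothelial cells (154, 155 and 159.8), by -0.77 (adjusted p = 0.000361 from limma). *Hs6st1*, a 6-O-sulfotransferase, was lowest in mesangial cells (63.6 to 68.1 in both genotypes), with 90.1, 85.3 and 86.9 in wild type podocytes, 105, 98.3 and 101 in mutant podocytes and 86.3 to 108 in endothelial cells, and mutant podocytes exceeded mesangial cells by 0.62 (adjusted p = 0.00279, limma). *Extl1* had 77.0, 92.6 and 147 in mutant podocytes, where array C stood above the rest, and 54.1 to 77.2 in all other groups, so that its difference of 0.64 from mutant mesangial cells and 0.80 from mutant endothelial cells is given without a test. *Extl2* lay between 82.9 and 143, and the linker enzymes *Xylt1*, *Xylt2* and *B3gat3* between 82.9 and 134, 59.0 and 112, and 94.7 and 166. *Ndst1* lay between 142 and 217 and its paralog *Ndst2* between 88.2 and 146 on all arrays, and neither was called between cell types.

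The second question was what the *Cd2ap* mutation changed. Genotype calls took the methods' criteria, in which a fold change had to exceed 1.5 at a p under 0.05 before adjustment, with the adjusted p beside them. In mesangial cells, 21 of the 38 genes reached 100 on at least 1 of 6 arrays, 1 was called higher (of all transcript clusters 2.08%) and 0 lower (3.12%), and 1 had an adjusted p under 0.05 (2.92%). In podocytes 26 were tested, with 0 called higher (1.26%) and 1 lower (4.34%), and 0 had an adjusted p under 0.05 (0.0578%). In endothelial cells 16 were tested, with 2 called higher (2.96%) and 0 lower (0.865%), and 1 had an adjusted p under 0.05 (1.29%). Shares of this size rest on 1 or 2 genes. The gene called in mesangial cells and the gene called in podocytes were both *Sulf1*.

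*Sulf1* had signals of 230.5, 304 and 387 in mutant mesangial arrays and 87.8, 90.5 and 145 in wild type mesangial arrays. The groups did not overlap, and the highest control was array C. The signal rose by 1.52 on the log2 scale (2.86-fold, standard error 0.25, adjusted p = 0.0361 from limma). Without array C the difference was 1.75, given without a test because the remaining controls were under 100. Leaving out any other single array of the 6 gave 1.34 to 1.71, which met the unadjusted criteria, with an adjusted p between 0.059 and 0.13. Summed podocyte markers were 983 to 1046 in the mutants, below each control. In this comparison 1 of 10 podocyte, 2 of 10 endothelial and 2 of 8 mesangial markers were called lower. Called higher were 2 of 5 juxtaglomerular and smooth muscle markers (sums 1592, 2603 and 2892 against 1425, 1609 and 1326) and 1 of 2 tested parietal epithelial markers (sums 438, 442 and 534 against 317, 323 and 320.4), and their part in the *Sulf1* result was not tested.

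In podocytes *Sulf1* moved the other way. Wild type podocyte arrays had 758, 690.0 and 697, the highest signals of this gene on any array, and mutant podocyte arrays had 405, 215 and 195. The groups did not overlap, and the signal fell by 1.47 on the log2 scale (2.78-fold, standard error 0.27, adjusted p = 0.135 from limma), a call by the unadjusted p that the adjusted p does not keep. Leaving out 1 array gave -1.80 to -1.28, with an adjusted p = 0.00926 without mutant array A and between 0.155 and 0.494 without any other. Endothelial and mesangial markers were lower in the same mutant podocyte arrays, and *Sulf1* itself was at 87.8 to 145 in wild type mesangial arrays and at 88.1, 69.1 and 73.4 in wild type endothelial arrays, and the part of these cells in the fall was not tested.

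In endothelial cells *Sulf1* was under 100 on all 6 arrays, with 55.7, 77.4 and 59.7 in mutants. The genotype effect on *Sulf1* differed between podocytes and mesangial cells by -2.99 (standard error 0.36, adjusted p = 0.000582 from limma over 18 arrays), and between endothelial and mesangial cells by -1.78 (standard error 0.36, adjusted p = 0.0257), a call that 8 of 18 omissions of 1 array ended. The difference between podocytes and endothelial cells was -1.21 (adjusted p = 0.0784). The order of cell types changed with genotype. Wild type podocytes exceeded mesangial cells by 2.77 (standard error 0.18) and endothelial cells by 3.22, given without a test because outside podocytes mesangial array C alone reached 100 in wild type. In mutant arrays podocytes and mesangial cells overlapped (difference -0.23, adjusted p = 0.575 from limma), and mesangial cells exceeded endothelial cells by 2.24 (adjusted p = 0.00027), which in wild type arrays was 0.46 (adjusted p = 0.0877).

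Its paralog *Sulf2* did not share this pattern. *Sulf2* had 213, 151 and 153 in mutant endothelial arrays and 128, 91.0 and 92.4 in wild type endothelial arrays, without overlap, a rise of 0.73 (1.66-fold, standard error 0.18, adjusted p = 0.109 from limma). In mesangial cells it was under 100 on all 6 arrays (46.5, 54.8 and 73.7 in controls, 48.4, 47.4 and 53.6 in mutants). In podocytes it had 184, 58.7 and 113 in controls and 103, 155 and 108 in mutants, which overlapped. Mutant endothelial cells exceeded mutant mesangial cells (mesangial minus endothelial -1.77, adjusted p = 7.22e-05, limma).

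**Figure D3:**
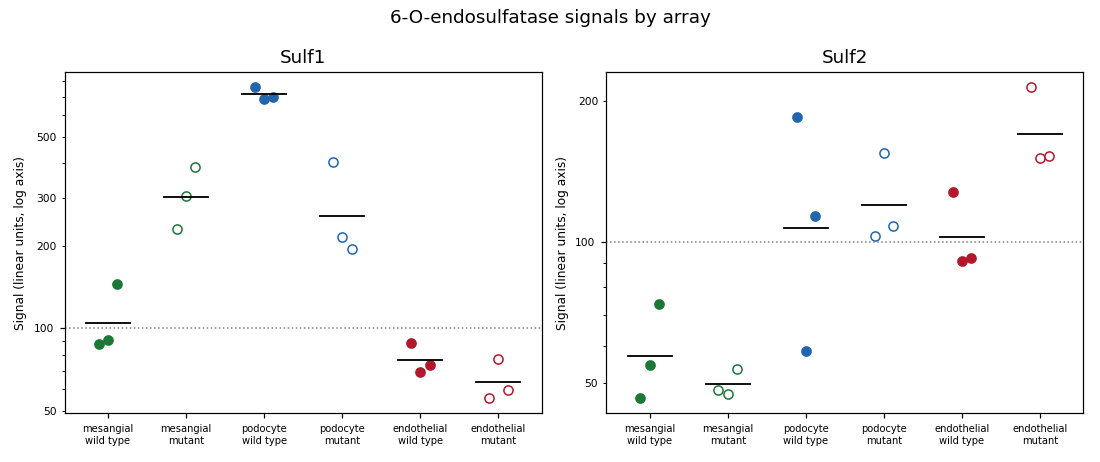
Signal of *Sulf1* and *Sulf2* (linear units on a log axis) in each array, for wild type (filled) and mutant (open) arrays of 3 cell types; bars are geometric means of 3 arrays and the dotted line is the minimum of 100. *Sulf1* is higher in mutant than in wild type mesangial arrays (230.5 to 387 against 87.8 to 145) and lower in mutant than in wild type podocyte arrays (195 to 405 against 690.0 to 758).

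The endothelial cells held the other gene called by genotype. *Hs2st1* had 179, 153 and 180.0 in mutant endothelial arrays and 136, 98.2 and 104 in controls, without overlap, a rise of 0.61 (1.52-fold, standard error 0.14, adjusted p = 0.0905 from limma). Both endothelial calls lie near the threshold: without mutant endothelial array A neither was called (0.57 for each), and without mutant array C or wild type array B or C *Hs2st1* was not called (0.52 to 0.57). Leukocyte marker sums were 784, 582 and 449 in mutant endothelial arrays A, B and C and 441, 492 and 499.5 in controls, with 0 of 3 tested markers called. Mesangial sums were 1356, 1243 and 1255 against 1207, 1001 and 1187, without overlap, with 1 of 3 tested markers called higher and 1 lower. Endothelial marker sums were 17328, 18086 and 17763 against 17298, 17240.5 and 15494, also without overlap, with 1 of 10 markers called higher and 0 lower. The part of these markers in the endothelial results was not tested. In mesangial cells *Hs2st1* had 275, 319.9 and 321 in mutants and 231, 283 and 240.1 in controls, and in podocytes 199, 166 and 220.4 in mutants and 187, 194 and 219 in controls, not called in either. *Ndst1*, which sets the first sulfation step, had 217, 200.04 and 210.3 in mutant endothelial arrays and 153, 144 and 153 in controls. This difference of 0.48 (1.39-fold, standard error 0.09, adjusted p = 0.0444 from limma) did not reach a fold change of 1.5, and its adjusted p was 0.0551 to 0.16 with any 1 of the 6 arrays left out and 0.0978 after a further quantile normalization. *Ndst2* had 146, 134 and 119.9 against 107, 107 and 125, which overlapped (0.24, adjusted p = 0.295).

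*Extl3* had 108, 90.9 and 107 in mutant endothelial arrays and 75.9, 69.3 and 67.9 in controls, a difference of 0.52 given without a test, because it reached 100 there in mutants alone. In podocytes it had 165, 141 and 137 in mutants and 184, 221 and 204 in controls, a difference of -0.46 (adjusted p = 0.216 from limma), and in mesangial cells 169, 177 and 204 against 191, 209.6 and 222 (-0.18, adjusted p = 0.374, limma). Genotypes did not overlap in podocytes, with mutants lower, or in endothelial cells, where the minimum of 100 favoured the mutants, and *Extl3* was not called in any cell type. The genotype effect differed between podocytes and endothelial cells by -0.98 (standard error 0.16, adjusted p = 0.00949, limma over 18 arrays) and between endothelial and mesangial cells by 0.70 (standard error 0.16, adjusted p = 0.0428), a call that 10 of 18 omissions of 1 array ended, array C of the wild type mesangial cells among them (0.65, adjusted p = 0.0901). Across the 28 genes tested, 1 had an adjusted p under 0.05 for podocytes against mesangial cells (0.717% of all transcript clusters), 2 for endothelial against mesangial cells (1.07%) and 1 for podocytes against endothelial cells (2.11%), and these were the *Sulf1* and *Extl3* results above.

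**Figure D4:**
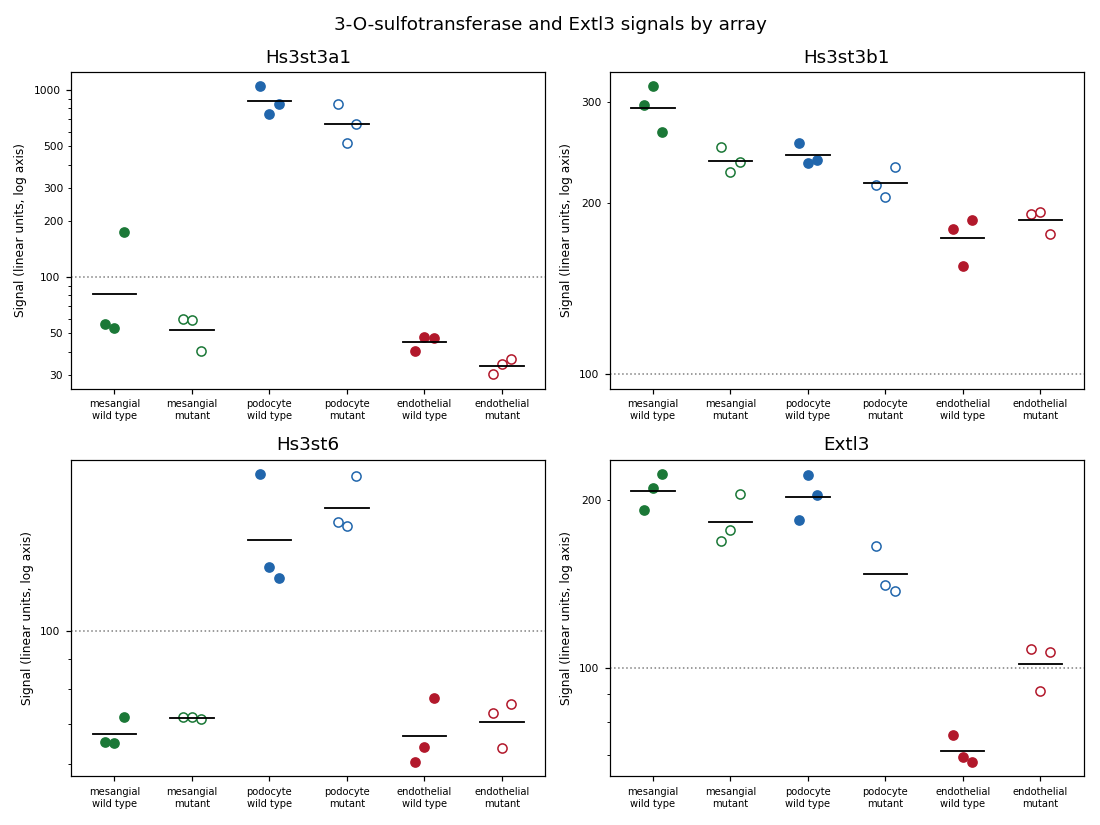
Signal of *Hs3st3a1*, *Hs3st3b1*, *Hs3st6* and *Extl3* (linear units on a log axis) in each array, for wild type (filled) and mutant (open) arrays of 3 cell types; bars are geometric means of 3 arrays and the dotted line is the minimum of 100. *Hs3st3a1* is at 524 or more in podocyte arrays alone, *Hs3st3b1* at 155 or more in all arrays, and *Extl3* is higher in mutant than in wild type endothelial arrays (90.9 to 108 against 67.9 to 75.9).

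The directions of all tested genes are given as a description, since a gene that reached 100 in mutant arrays alone had to lie higher there. In endothelial cells this holds for *Xylt2*, *Extl2* (101, 98.0 and 91.9 against 82.9, 93.4 and 88.1) and *Extl3*. Of the 16 tested there, 15 had a positive difference (7352 of 11330 transcript clusters in all), 8 had all mutant arrays above all controls (17.7% of all transcript clusters) and 0 all below (7.34%), and the median log2 difference was 0.24, against 0.07 over all transcript clusters tested. The 8 were *Xylt2*, *Ext1*, *Ext2*, *Extl3*, *Ndst1*, *Hs2st1*, *Sulf2* and *Sdc3*. *Xylt2* had 104, 105 and 112 against 97.4, 94.1 and 77.2, and *Sdc3* had 192, 158 and 161 against 136, 139.5 and 139 (0.30, adjusted p = 0.2 from limma). In mesangial cells 14 of 21 were positive, 3 lay all above (12.3%) and 1 all below (16.3%), with a median of 0.10 against -0.02 over all. *Ext1* was among the 3, with 394, 535 and 512 in mutants against 324, 364 and 328 (0.49, adjusted p = 0.105), *Ndst2*, which reached 100 in mutants alone, was another (115, 109 and 103 against 88.8, 90.7 and 95.6), and *Hs3st3b1* was the 1 below, with 249.9, 226 and 235.4 against 296, 319.9 and 266 (-0.31, adjusted p = 0.147, limma). *Xylt1* reached 100 in wild type mesangial cells alone (100.4 in array A), as did *Hs3st3a1* (175 in array C, with its podocyte markers). Each had a negative difference. In podocytes 13 of 26 were positive, 3 lay all above (6.97%) and 4 all below (14.3%), with a median of -0.01 against -0.04 over all. *Hs6st1*, 1 of the 3 above, reached 100 in mutant podocytes alone, as did *Extl1* and *Hs3st2*, and *Glce*, 1 of the 4 below, reached it in wild type podocytes alone.

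*Sulf1* was the gene high in wild type podocytes that was also called by genotype there. *Hs3st3a1* in podocytes differed by -0.39 (standard error 0.21, adjusted p = 0.428 from limma), *Hs3st6* by 0.18 (adjusted p = 0.695), *Sdc2* by -0.44 (adjusted p = 0.401) and *Sdc4* by 0.22 (adjusted p = 0.537). *Gpc3* in mesangial cells differed by 0.06 (standard error 0.18, adjusted p = 0.866), *Gpc4* by 0.21 (adjusted p = 0.442) and *Gpc6* by 0.28 (adjusted p = 0.275, limma). *Hspg2* in endothelial cells differed by 0.33 (standard error 0.14, adjusted p = 0.278).

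**Figure D5:**
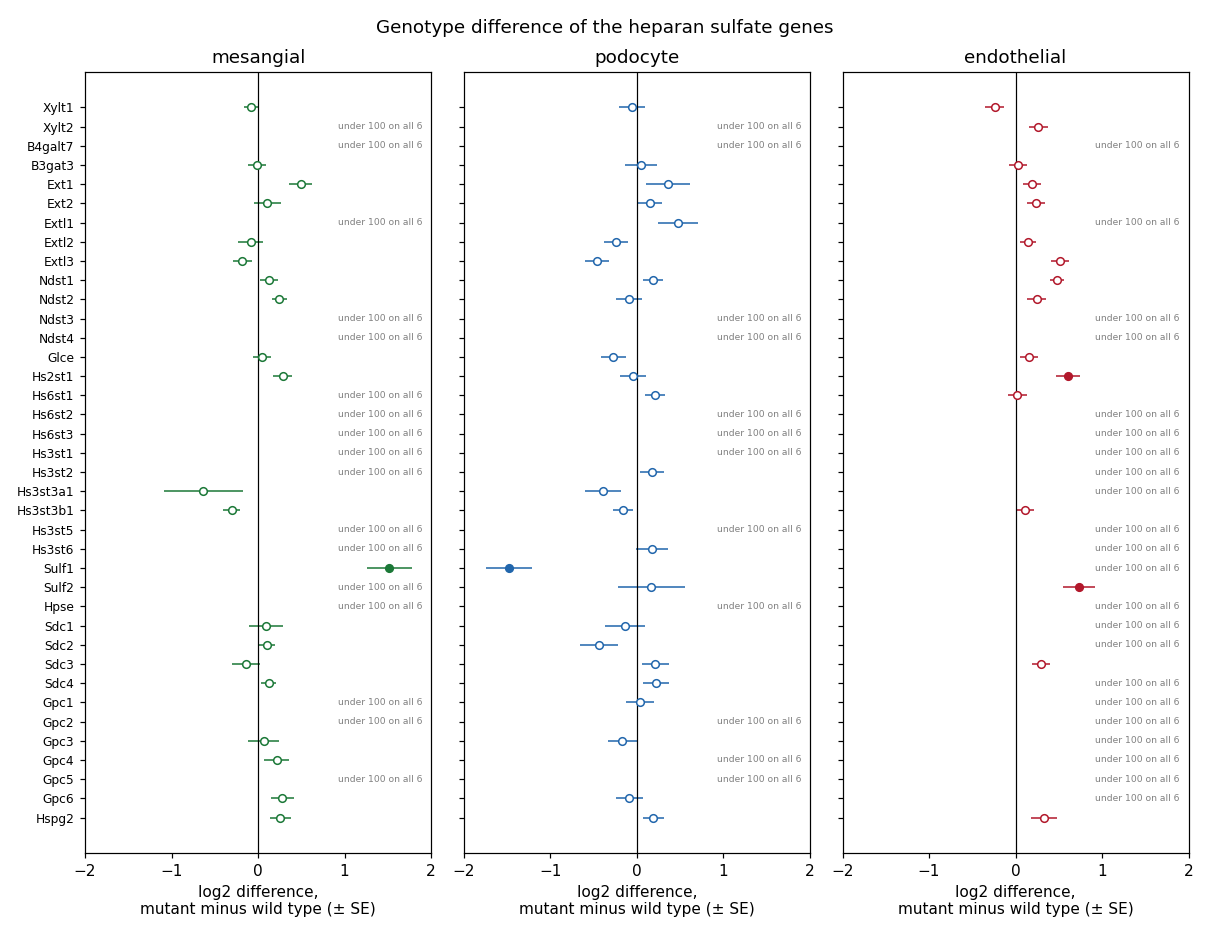
Genotype difference of each gene (log2, mutant minus wild type, with the standard error of the limma fit from 3 against 3 arrays) in mesangial cells, podocytes and endothelial cells; filled points passed p under 0.05 and fold over 1.5, and genes under 100 on all 6 arrays of a cell type have no point. *Sulf1* is the point farthest from 0 in mesangial cells (1.52) and in podocytes (-1.47), and *Sulf2* (0.73) and *Hs2st1* (0.61) are the filled points in endothelial cells.

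Other genes of the pathway were taken from a list of 57 with a transcript cluster: precursor supply, further linker enzymes and core proteins, lysosomal degradation, heparin-binding growth factors, and the chondroitin and dermatan sulfate enzymes. In mesangial cells 34 were tested, with 2 called higher (2.08% of all transcript clusters) and 1 lower (3.12%). *Bmp4*, a growth factor of the BMP family, rose (558, 562 and 669 against 399, 294 and 329.5, 0.81, adjusted p = 0.0369 from limma), as did *Tgfb2* (172, 206 and 169 against 89.0, 112 and 120.0, 0.77, adjusted p = 0.0426), and *Hbegf*, a heparin-binding ligand of the EGF receptor, fell (130.0, 227 and 149 against 232, 254 and 293, -0.66, adjusted p = 0.148). In podocytes 38 were tested, with 1 called higher (1.26%) and 5 lower (4.34%). *Cxcl12*, a chemokine, was the 1 higher (313, 342 and 395 against 204, 166 and 242, 0.79, adjusted p = 0.153, limma). The 5 were *Gfpt1*, the first enzyme of hexosamine supply (-0.63, adjusted p = 0.181), *Dse*, a dermatan sulfate epimerase (-0.71, adjusted p = 0.143), *Hbegf* (-0.65, adjusted p = 0.329), *Nrp1*, a receptor that can carry a glycosaminoglycan chain (-1.45, adjusted p = 0.154), and *Ptn*, a heparin-binding factor (-2.002, adjusted p = 0.324, limma). Wild type signals of *Nrp1* were 2236 to 2336 in mesangial and 2179 to 2470.2 in endothelial arrays, against 1258 to 1499.7 in podocyte arrays. Those of *Ptn* were 3425 to 3601 in mesangial, 143 to 200.1 in endothelial and 2028 to 2434 in podocyte arrays. Mesangial and endothelial markers were lower in the mutant podocyte arrays, and their part in these differences was not tested. In endothelial cells 34 were tested, with 2 called higher (2.96%) and 1 lower (0.865%), namely *Bmp4* (1.18, adjusted p = 0.14 from limma) and *Pdgfb* (0.83, adjusted p = 0.178) higher and *Hbegf* lower (-0.61, adjusted p = 0.146).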

How the data were processed

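RNA of GFP-sorted glomerular cells was amplified with Ribo-SPIA and hybridised to 18 Affymetrix arrays. The authors deposited linear signal intensity per transcript cluster, summarised by RMA per the labels, and 18 normalized columns on a log2 scale centred on each row's median, per the file headers, which were not used. The series text names another array type (Exon 1.0 ST), while the table holds 28856 transcript clusters of the Gene 1.0 ST design. RNA-seq was not analysed here. The podocyte transgene and 1 marker gene are not reported here. Depth has no meaning for arrays, and 3 arrays a group limit the precision.

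Signals were log2 transformed and fitted with limma 3.58.1 (R 4.3.3) across all transcript clusters that reached 100 on at least 1 array of the fit. Genotype fits used the 6 arrays of a cell type, with the methods' criteria (p under 0.05 and fold change over 1.5). Cell types were compared over 9 arrays of a genotype (adjusted p under 0.05 and fold change over 1.5). Differences between genotype effects used 18 arrays (adjusted p under 0.05). Adjustment was Benjamini-Hochberg over all transcript clusters tested, and the fits were tested on simulated data. RMA pulls the arrays toward 1 distribution, and the fold change of a dim probe is understated. The signals used did not share 1 distribution exactly, with array medians from 62.8 to 71.6. The symbol column joins several genes in 2815 clusters. Columns name the group of an array and not its sample, so arrays were not paired.

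Members and gene lists were chosen with earlier results of these data known. Values in every array were given for members called by genotype or in a difference between genotype effects, for the highest of each role and for their paralogs. Other pathway genes were named where called. Alternatives were 2 other scalings, 2 other signal minimums, an intensity trend with robust estimation, all 18 arrays in 1 fit, the mean of a gene's clusters, adjusted calls, and leaving out each array. Adjusted calls were an alternative for genotype comparisons only. Differences between genotype effects were run only with 1 of the other signal minimums, the trend with robust estimation, and leaving out each array.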

Additional observations from a re-analysis of the deposited data

Results flagged for a closer look

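Genotype effects of 2 genes differed between cell types by an interaction term (limma over 18 arrays, Benjamini-Hochberg adjusted). The effect on *Sulf1* in podocytes minus that in mesangial cells was -2.99 on the log2 scale (adjusted p = 0.000582), with all 3 mutant arrays above the controls in mesangial cells and all 3 below them in podocytes. The effect on *Sulf1* in endothelial minus that in mesangial cells was -1.78 (adjusted p = 0.0257), where the endothelial signals were under 100 on all 6 arrays.

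The effect on *Extl3* in podocytes minus that in endothelial cells was -0.98 (adjusted p = 0.00949, limma), and that in endothelial minus mesangial cells was 0.70 (adjusted p = 0.0428). The endothelial signals behind both differences were 67.9 to 75.9 in controls and 90.9 to 108 in mutants, around the signal minimum of 100.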

How the results depend on the processing

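No result reversed under any alternative run. Differences between genotype effects were not run under another scaling. The rise of *Sulf1* in mesangial cells was 1.502 to 1.52 under the alternatives (adjusted p 0.00297 to 0.0693, limma) and 1.34 to 1.75 with 1 array left out. Its fall in podocytes was -1.51 to -1.36 (adjusted p 0.00451 to 0.224) and -1.80 to -1.28 with 1 array left out, and under the adjusted criteria the value of -1.47 was no longer called. Under those criteria the count of genes called lower in podocytes went from 1 to 0 and the count called higher in endothelial cells from 2 to 0. A further quantile normalization gave 1 of the latter, and subtracting array medians gave 3 of them and 4 in place of 2 genes lower in mutant podocytes than in mutant endothelial cells. Of all transcript clusters called by genotype, the share called higher was 22.5% in podocytes, 17.1% with array medians subtracted and 33.1% after quantile normalization, and 77.4%, 87.8% and 65.4% in endothelial cells. The cause was not tested.

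With 1 array left out, the genes called higher by genotype numbered 1 to 2 in mesangial cells (2 without mutant A), 0 to 1 in podocytes (1 without mutant A or C) and 0 to 3 in endothelial cells (0 without mutant A, 1 without mutant C or wild type B or C), and those lower in podocytes 1 to 2 (2 without mutant A). Genes lower in wild type mesangial than endothelial cells numbered 1 to 2 (2 without endothelial B or podocyte A or B). For podocyte minus mesangial effects the lower calls were 1 to 2 (2 without podocyte mutant A). For endothelial minus mesangial effects the higher calls were 0 to 1 (*Extl3*, lost without endothelial mutant A or C, endothelial wild type B or C, mesangial mutant A or B, mesangial wild type B or C, or podocyte wild type B or C) and the lower calls 0 to 1 (*Sulf1*, lost without endothelial mutant A or C, endothelial wild type A or C, mesangial mutant B or C, or mesangial wild type A or B). For podocyte minus endothelial effects the higher calls were 0 to 1 and the lower 1 to 4 (1 and 4 without podocyte mutant A, 2 lower without endothelial wild type A). The smaller number of arrays is part of each such setting. No paired analysis was possible because the array columns carry no replicate number that the groups share.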
